A study of Mus musculus with 26 samples.

Results

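The stress of repeated defeat by an aggressive mouse (R-SDS, for repeated social defeat) was compared with cage transfer (naive) in microglia of the medial prefrontal cortex (mPFC) of wild-type mice. The comparison rests on 6 of the 26 arrays of the series, 3 after R-SDS and 3 naive, chosen by the region, genotype and treatment in their labels. All mice were C57BL/6 and carried the CX3CR1EGFP/+ genotype, so that EGFP replaces 1 of the 2 copies of the fractalkine receptor gene in every group, the naive one included. The R-SDS mice were the ones labelled susceptible. Mice were perfused 1.5 hours after the last session, EGFP-positive cells were sorted from a punch 1.5 mm wide, and each array holds amplified RNA (500 pg) pooled from 3 to 6 mice. Pools were separate samples from 2 independent experiments with different mice, but the labels do not say which pool came from which experiment. P-values therefore measure the spread between pools, not between experiments. That spread was estimated within the 8 groups of the series together, not from the 6 arrays alone. Set beside this response are the R-SDS and naive groups of TLR-DKO mPFC (7 arrays) and of wild-type nucleus accumbens (NAc, 6 arrays), treated the same way. According to the published study TLR-DKO mice lack the innate receptors Tlr2 and Tlr4, and the labels call the stressed TLR-DKO mice resilient. The EGFP gate takes any cell in which the Cx3cr1 promoter is active, which includes macrophages at the borders of the brain and some blood monocytes.

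Microglia are the resident macrophages of the brain and survey it through receptors for nucleotides, cytokines and microbial products. Within minutes of a stimulus, cells transcribe immediate early genes (the AP-1 proteins Fos and Jun, the Egr, Nr4a and Klf families), whose protein products then switch on or dampen later genes. Defeat raises circulating glucocorticoids and noradrenaline, and the mPFC takes part in coping with social threat. Gene groups are described below in that order, from early transcription factors to hormone targets, inflammatory mediators, metabolism and microglial identity.

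A level is the log2 signal of a gene with the 75th percentile of its array set to 0, and a difference is R-SDS minus naive on the same log2 scale, with their standard error (SE). Between 50.3% and 71.0% of the spots were well above background (the scanner software's own flag), and both extremes lay on slide 2, which holds R-SDS replicate 3 (50.3%) and naive replicate 3 (71.0%). The other 4 arrays share slide 1, which was scanned on another day. R-SDS replicate 3 stood apart from all other arrays of the series, with a mean Pearson r of 0.793 with them across genes and an array weight of 0.249, so results that rest on it are given with and without it. Of 24739 genes in the fit, 21195 were well above background on all 3 arrays of at least 1 of the 2 groups and are called measured here, and 12247 of these have a RefSeq name. The median SD between arrays was 0.62 in the naive and 0.75 in the R-SDS group.

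The sorted cells carried the markers of microglia. All 16 microglia and macrophage markers were measured, and their mean level was 6.59, 6.89 and 6.38 on the naive arrays and 6.74, 6.50 and 7.79 on the R-SDS arrays, with only R-SDS replicate 3 above the naive range. Of 25 neuron markers 12 were measured, with a mean level of -0.66, -1.01 and -0.43 in naive and 0.32, 1.03 and 1.09 in R-SDS arrays, so the groups did not overlap. All 12 had a difference above 0 (median 0.92, and 1.47 without R-SDS replicate 3), while Slc17a6, Reln and Vip were not above background on any of the 6 arrays. Singly, 3 of the 12 had all R-SDS arrays above all naive arrays (25.0%, against 5.34% of all measured genes). Nefl, a neurofilament gene, was at -6.01, -5.28 and 2.14 in naive and -0.06, 1.22 and 4.10 in R-SDS arrays. It was above background on 1 naive array and counted as measured only through the R-SDS group, where it is high. Camk2b differed by 4.42, but by 1.48 ± 1.10 on another probe. Of 16 astrocyte markers 11 were measured, at -0.17 to 0.83 in naive and 0.17 to 1.17 in R-SDS arrays, with Gjb6 and Sox9 not above background. The mean levels were also taken for oligodendrocyte markers (-0.49 to -0.25 naive, -0.24 to -0.08 R-SDS), which lay apart by less than 0.01, and for endothelial (-1.24 to -0.40, -0.75 to -0.00), perivascular macrophage (-0.03 to 0.77, -0.70 to 1.32), monocyte and neutrophil (-0.93 to -0.75, -1.17 to -0.33) and lymphocyte markers (0.07 to 0.76, 0.13 to 0.95), all of which overlapped. In pooled cells, fewer cells of a type and less RNA per cell cannot be told apart.

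**Figure D1:**
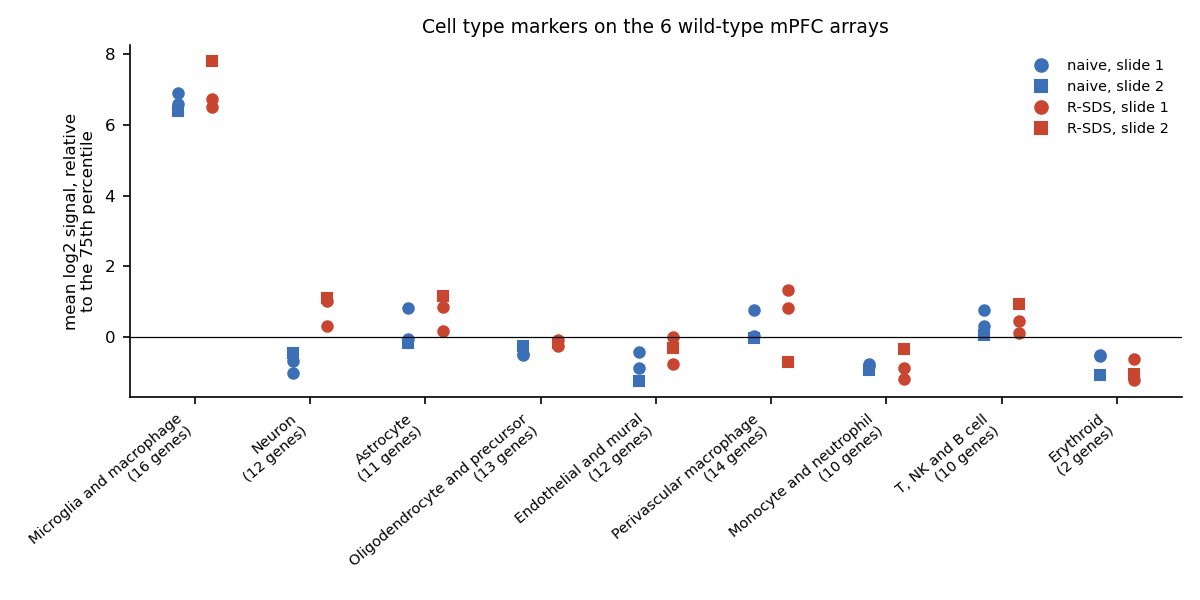
Mean log2 signal of the measured markers of 9 cell types (vertical axis, relative to the array's 75th percentile) on each of the 6 wild-type mPFC arrays. Circles are slide 1 and squares slide 2, blue naive and red R-SDS. Microglia markers lay between 6.38 and 7.79, and those of neurons lay between 0.32 and 1.09 in the R-SDS arrays and between -1.01 and -0.43 in the naive arrays.

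Both genes that passed the test rose after R-SDS. They are Hilpda, which encodes a small protein of lipid droplets that is induced by hypoxia and inhibits the lipase ATGL, and Msantd3, which encodes a protein with a Myb-like DNA-binding domain. They make 0.00944% of the measured genes, and 0 genes fell (0%), by limma with Benjamini-Hochberg adjustment over all genes in the fit. Hilpda was at -6.18, -5.48 and -6.63 on the naive arrays, not well above background on any of them, and at 2.11, 1.57 and 4.19 after R-SDS. The groups lay far apart, and R-SDS replicate 3 was the highest array. The difference was 8.72 ± 1.41 (95% interval 5.80 to 11.65, limma adjusted p = 0.0495). Since the naive arrays give only a bound, Hilpda was at least 86.1-fold higher by the group means. That bound covers the naive side only, as the R-SDS mean includes replicate 3 and no fold was taken without it. Another probe of the gene gave 8.17 ± 1.32 with the same pattern of detection. Msantd3 was at -6.13, -5.41 and -6.65 in naive mice, again not above background, and at 0.08, 0.34 and 3.21 after R-SDS. Here too every R-SDS array exceeded every naive array and replicate 3 was the highest. The difference was 7.27 ± 0.93 (limma adjusted p = 0.00356), at least 32.3-fold higher by the same bound, which again includes replicate 3. Another Msantd3 probe gave only 1.69 ± 0.48 and was above background on 1 R-SDS array.

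The Hilpda call lay close to the threshold. Without R-SDS replicate 3 Hilpda differed by 7.94 (limma adjusted p = 0.308) and Msantd3 by 6.27 (limma adjusted p = 0.0283). Hilpda missed the threshold whichever of the 6 arrays was left out (limma adjusted p from 0.07 to 0.369). Among those 6 fits Msantd3 failed in 1, the one without naive replicate 3 (limma adjusted p = 0.0576). With normexp background correction and quantile normalization together, the differences were 4.47 for Hilpda (limma adjusted p = 0.142, so that the call was lost) and 2.96 for Msantd3, which still passed.

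Hilpda was detected in most other groups, naive ones included. Hilpda was well above background on every R-SDS array of the other groups, at -0.74 to 1.36 in TLR-DKO mPFC, -0.82 to -0.30 in wild-type NAc and -2.37 to 1.07 in TLR-DKO NAc, but also on all 3 naive wild-type NAc arrays (-0.68, 0.00 and 0.41). In naive TLR-DKO mPFC it ranged from -6.11 to 2.81, with 2 of 4 arrays above background. In order of mean level, wild-type mPFC after R-SDS (2.62 ± 1.38, SD, n = 3) and TLR-DKO mPFC after R-SDS (0.43 ± 1.07, n = 3) stood above the wild-type NAc groups (-0.09 ± 0.55 naive and -0.61 ± 0.27 R-SDS, n = 3 each), which differed by no more than their spread. The TLR-DKO NAc groups lay with them (-0.35 ± 0.66 naive, n = 3, and -0.52 ± 1.55 R-SDS, n = 4). Naive TLR-DKO mPFC (-2.41 ± 3.85, n = 4) and naive wild-type mPFC (-6.10 ± 0.58, n = 3) were lowest. Msantd3 was above background on all 3 arrays of the wild-type mPFC R-SDS group and otherwise on 1 naive TLR-DKO NAc array (-0.67). Everywhere else it lay between -6.65 and -4.37.

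**Figure D2:**
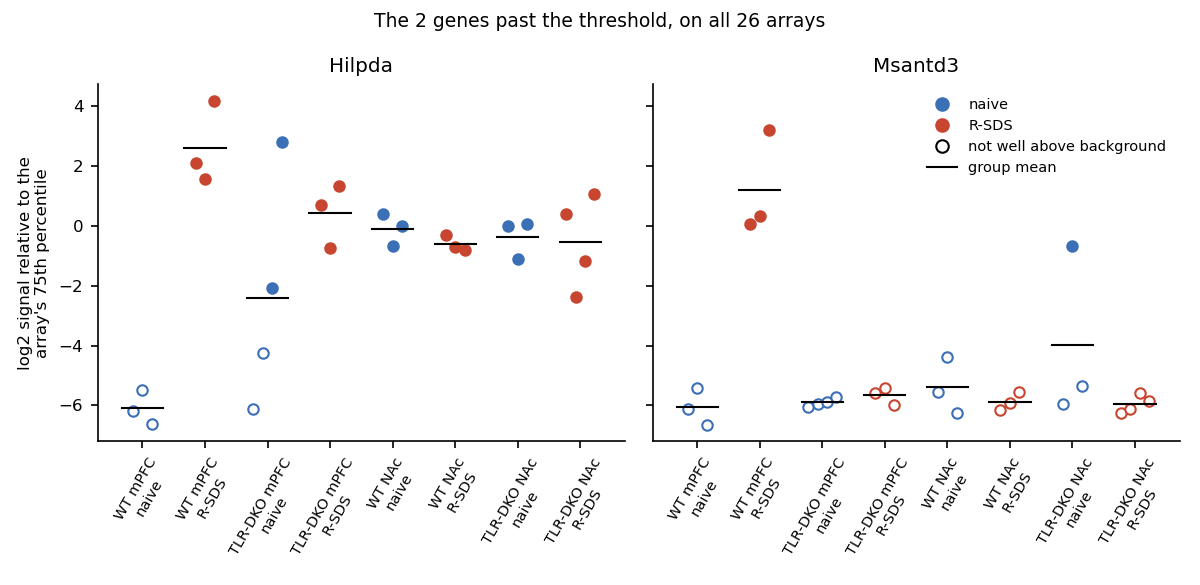
Log2 signal with each array's 75th percentile at 0 (vertical axis) of Hilpda and Msantd3 on all 26 arrays by group. Each point is an array, open points are not well above background and bars are group means. Hilpda is at 1.57 to 4.19 after R-SDS in wild-type mPFC and -6.63 to -5.48 in its naive group, and Msantd3 is open in every group but wild-type mPFC R-SDS and 1 naive TLR-DKO NAc array.

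The RefSeq promoters of these 2 genes (build GRCm38.p6, 250 bases before a transcription start, plus strand) are shown for the letters they hold, with matches in capitals. Searched on both strands were the hypoxia response element core ACGTG and its form GCGTG, the E-box CACGTG (which contains ACGTG on both strands), the cAMP response element TGACGTCA, its core TGACG, and the AP-1 site TGANTCA. RefSeq gives 2 starts for Hilpda and 3 for Msantd3, and of each the window with the most matches was chosen. The window of the Hilpda start at chr6:29272376-29272625 holds ACGTG at bases 43 to 39 before the start, GCGTG at 111 to 107 and 8 to 4, an AP-1 site at 128 to 122, and TGACG at 68 to 64 and, on the opposite strand, at 246 to 242. A window of Msantd3 at chr4:48539831-48540080 holds ACGTG on the opposite strand at 76 to 72. ACGTG occurs in 16.6% and GCGTG in 28.2% of the 32851 windows of this length, so a match describes the sequence and is no sign of binding.
Hilpda: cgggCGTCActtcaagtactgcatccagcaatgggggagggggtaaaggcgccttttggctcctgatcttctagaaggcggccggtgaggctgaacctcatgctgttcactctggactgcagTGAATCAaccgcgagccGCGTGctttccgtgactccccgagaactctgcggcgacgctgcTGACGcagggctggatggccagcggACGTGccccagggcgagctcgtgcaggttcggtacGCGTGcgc
Msantd3: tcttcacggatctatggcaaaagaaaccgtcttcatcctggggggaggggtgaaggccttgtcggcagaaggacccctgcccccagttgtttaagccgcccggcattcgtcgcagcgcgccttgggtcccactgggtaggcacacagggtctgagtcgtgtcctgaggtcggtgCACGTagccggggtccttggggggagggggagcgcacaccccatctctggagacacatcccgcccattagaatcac

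The early transcription factors stood higher as a group. Of 32 members 28 were measured, all 28 had a difference above 0 (13214 of 21195 measured genes did, the share each list's count is to be read against), and in 15 (53.6%) all R-SDS arrays lay above all naive arrays, against 5.34% of all measured genes. The median was 1.31, beside 0.17 over all measured genes, and 0 of the 28 passed the test (0.00944% of measured genes did). The mean level of the list was 2.00, 1.60 and 1.70 on the naive and 3.04, 2.89 and 3.67 on the R-SDS arrays, so the R-SDS arrays were the higher ones on both slides. The median was 0.87 within slide 1 (26 of 28 above 0), 1.55 within slide 2 (26 of 28) and 1.18 without R-SDS replicate 3 (27 of 28). The neuron marker level was also higher on all 3 R-SDS arrays (0.32 to 1.09, against -1.01 to -0.43), as was that of oligodendrocytes (-0.24 to -0.08, against -0.49 to -0.25), and their part in this result was not tested. Both were higher beside the hormone, cytokine, chemokine and NF-kappaB lists described below as well.

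Among the Klf factors, Klf4, which shapes monocyte and macrophage responses, was at 0.56, -0.60 and 0.66 in naive and 3.04, 2.38 and 4.75 in R-SDS arrays. The lowest R-SDS array lay above the highest naive array. The difference of 3.18 ± 0.85 missed the threshold (limma adjusted p = 0.732), and it passed only with slide as a block (limma adjusted p = 0.0421). Klf6 had a difference of 0.74 ± 0.43, with groups that did not overlap. Klf2 overlapped between the groups, from -1.76 to 3.49 naive and 2.11 to 6.06 R-SDS. Klf10 (1.42 ± 0.78) and Klf13 (0.64 ± 0.93) overlapped as well.

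Of the AP-1 proteins, Fos was at 4.15, 4.47 and 1.94 in naive and 5.82, 4.94 and 5.31 in R-SDS arrays, a difference of 1.84 ± 0.62. Naive replicate 3 was the low array, without which Fos differed by 1.05 and Junb by 1.09, and it was low for Junb too, which was at 1.85, 1.31 and -0.42 in naive and 2.54, 1.99 and 3.46 in R-SDS arrays. Atf3, a stress-induced repressor of cytokine genes, was at 2.34, 2.81 and 1.63 in naive and 4.43, 4.16 and 3.62 in R-SDS arrays (1.81 ± 0.54). R-SDS replicate 3 was the lowest of the 3 stressed arrays for Atf3, so its difference was as large without it (2.04). Fosl2 was at 2.20, 1.86 and 3.98 against 4.59, 5.04 and 5.17. Jund (1.22 ± 0.50) and Jun (0.96 ± 0.76) also had groups that did not overlap, though without R-SDS replicate 3 they differed by 0.77 and 0.39, while Fosb (4.84 to 6.78 naive, 6.29 to 7.87 R-SDS) and Batf overlapped.

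Egr and Nr4a factors, which neurons and macrophages induce within the first hour of a stimulus, differed less evenly. Egr3 was at -0.37, 0.42 and -0.01 in naive and 3.50, 0.93 and 3.52 in R-SDS arrays, and Egr2 at 3.34, 3.59 and 1.97 against 4.70, 3.84 and 4.74. For both the groups lay apart, with the second R-SDS array the lowest. Egr1 differed by 0.64 ± 0.52 (0.33 without R-SDS replicate 3) and Nr4a1 by 1.11 ± 0.71, again without overlap. Cebpb, a bZIP factor that drives inflammatory genes in macrophages, was at 4.40, 4.33 and 3.97 in naive and 5.33, 5.47 and 6.14 in R-SDS arrays (1.41 ± 0.37). Its naive arrays lay close together and all R-SDS arrays lay above them. The repressor Nfil3 was at -1.67, -2.82 and -1.33 against -0.29, -0.18 and 1.80. Cebpd and Csrnp1 were the least steady members, at 0.23 ± 0.75 and 0.51 ± 1.54, and Cebpd was lower (-0.46) without R-SDS replicate 3. Members beyond the 5 of smallest p in a list were chosen for naming after their values were seen.

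**Figure D3:**
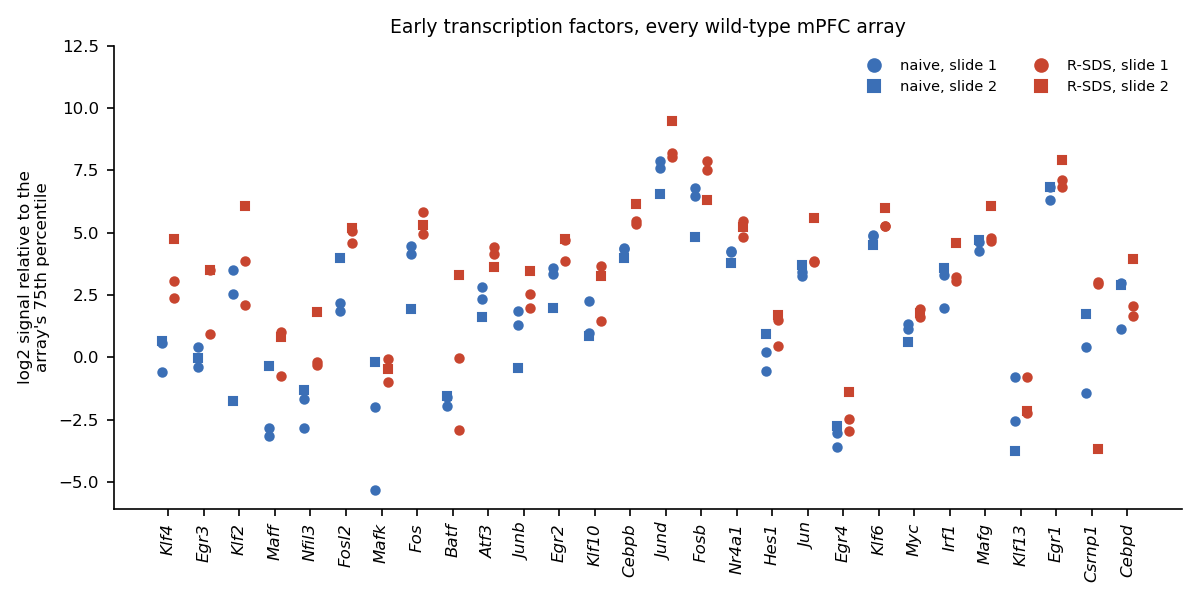
Log2 signal with each array's 75th percentile at 0 (vertical axis) of the 28 measured early transcription factors, ordered by difference, on the 3 naive (blue) and 3 R-SDS (red) arrays. Circles are slide 1 and squares slide 2. In 15 of 28, Klf4, Fos and Atf3 among them, all red points lie above all blue points.

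The promoters of 4 early factors whose groups did not overlap each hold the core TGACG, which CREB and ATF proteins bind. TGACG was present in 17 of the 22 early factors with a RefSeq window (77.3%), against 27.1% of the 9773 measured genes with a window. The early windows are richer in G and C (median 65.8% against 58.4%). The GC box GGGCGG (81.8% against 56.4%), CACGTG (27.3% against 9.2%) and the NF-kappaB motif (31.8% against 10.0%) were also more frequent, while the AP-1 site TGANTCA (4.5% against 6.3%) and the glucocorticoid receptor core TGTTCT (4.5% against 14.6%) were not. The serum response factor CArG box was found in 4.5% and 1.5%, the heat shock motif GAANNTTC in 9.1% and 6.6%. Here too a match describes the sequence and is no sign of binding, and control by any of these proteins was not tested. The windows are Klf4 (chr4:55532476-55532725, minus strand), Fos (chr12:85473640-85473889, plus), Atf3 (chr1:191183334-191183583, minus) and Cebpb (chr2:167688665-167688914, plus), printed 5′ to 3′ with the 6 motifs of the preceding promoters in capitals. TGACG lies 66 to 62 bases before the start of Fos and 53 to 49 before that of Cebpb. On the opposite strand it lies 7 to 3 bases before the start of Atf3 and 232 to 228 before that of Klf4. Another TGACG of Cebpb, at 7 to 3, overlaps GCGTG at 10 to 6.
Klf4: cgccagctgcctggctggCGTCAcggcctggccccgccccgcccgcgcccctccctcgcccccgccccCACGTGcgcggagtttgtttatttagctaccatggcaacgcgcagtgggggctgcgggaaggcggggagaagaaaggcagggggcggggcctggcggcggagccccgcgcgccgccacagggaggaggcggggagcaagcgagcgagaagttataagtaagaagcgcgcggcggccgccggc
Fos: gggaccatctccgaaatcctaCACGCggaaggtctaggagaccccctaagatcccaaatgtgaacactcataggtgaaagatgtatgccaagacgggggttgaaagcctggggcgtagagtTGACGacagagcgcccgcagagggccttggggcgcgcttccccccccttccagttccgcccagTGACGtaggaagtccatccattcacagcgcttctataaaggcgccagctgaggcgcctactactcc
Atf3: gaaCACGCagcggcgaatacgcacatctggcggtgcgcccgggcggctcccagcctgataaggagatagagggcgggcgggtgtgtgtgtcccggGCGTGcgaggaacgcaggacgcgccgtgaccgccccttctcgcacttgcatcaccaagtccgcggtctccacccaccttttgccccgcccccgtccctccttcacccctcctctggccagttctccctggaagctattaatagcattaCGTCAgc
Cebpb: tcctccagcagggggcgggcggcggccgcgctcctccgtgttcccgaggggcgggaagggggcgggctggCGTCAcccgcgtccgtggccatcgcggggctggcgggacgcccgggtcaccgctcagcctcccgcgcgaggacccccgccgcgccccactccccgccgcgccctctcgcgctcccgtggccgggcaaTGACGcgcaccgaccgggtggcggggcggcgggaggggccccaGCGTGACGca

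Other immediate early and feedback genes stood nearer the background. Of 38, 31 were measured, 23 were above 0 (median 0.28), and 6 had R-SDS arrays all above the naive ones (19.4%, against 5.34%). Among these 6, Sik1 counted as measured only through the R-SDS group, where it is high, so the filter raised this share. Sik1, a kinase that CREB induces and that restrains CREB's coactivators, was not above background on the naive wild-type mPFC arrays (-5.85, -5.16 and -6.23). After R-SDS it was at -0.15, 0.02 and 1.33. It was at least 18.4-fold higher, but the fitted difference of 6.15 ± 1.60 missed the threshold (limma adjusted p = 0.729). Some naive arrays of other groups detected Sik1, such as TLR-DKO mPFC replicates 2 and 4 (-1.28 and 0.67) and wild-type NAc replicates 1 and 2 (-0.82 and -1.29). Others did not, such as wild-type NAc replicate 3 (-5.23). Zfp36l1, which degrades AU-rich mRNA, was at 3.35, 4.06 and 2.84 against 5.22, 4.21 and 4.10 (1.09 ± 0.34). Its relative Zfp36 (0.60 ± 0.38), the MAP kinase phosphatase Dusp1 (1.16 ± 0.56), the antiproliferative Btg1 (0.82 ± 0.32) and the ERK antagonist Spry2 (0.65 ± 0.40) complete the 6 genes without overlap.

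The list of the glucocorticoid receptor, through which the stress hormone corticosterone acts, its modifiers and its targets had a median of 0.68 over 32 of 37 members measured, with 24 above 0 and 6 (18.8%, against 5.34%) whose groups did not overlap. Tsc22d3, which encodes the anti-inflammatory GILZ, was at 4.29, 4.85 and 3.55 in naive and 5.95, 5.70 and 6.30 in R-SDS arrays (1.75 ± 0.46, limma adjusted p = 0.729). Every stressed array exceeded every naive one, on each slide. Ddit4, an inhibitor of mTORC1, was at 4.93, 4.68 and 3.98 against 5.56, 6.64 and 8.06, with R-SDS replicate 3 far the highest. Fkbp5, a co-chaperone that dampens the receptor, and the clock gene Per1 overlapped slightly between the groups, at 1.71 to 2.80 against 2.75 to 5.16 and 0.26 to 1.83 against 1.08 to 4.56. Without R-SDS replicate 3 they differed by 0.60 and 0.77. The receptor gene Nr3c1 was at 2.73, 1.00 and 1.63 in naive and 1.17, 1.63 and -0.20 in R-SDS arrays, which overlap (-0.92 ± 0.58). Zbtb16 (1.43 ± 0.77) and Bcl6 (1.12 ± 0.94), with Dusp1 and Zfp36 above, were the other targets without overlap. The median of the list was 0.38 within slide 1, 1.05 within slide 2 and 0.53 without R-SDS replicate 3. In the circadian clock list, with 18 of 26 measured, 9 were above 0 and 9 below.

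Cytokine genes that microglia make had a median of 0.60 (22 of 37 measured, 19 above 0), and in 3 the R-SDS arrays all lay higher (13.6%, against 5.34%). Il1a was at 1.06, 2.05 and 1.50 in naive and 3.01, 3.25 and 4.84 in R-SDS arrays (2.16 ± 0.90). Tnf was at 0.68, 1.91 and 1.82 against 2.85, 3.30 and 2.62 (1.45 ± 1.10), a separation of the groups. Il1b overlapped, at 3.38, 1.60 and 2.02 against 2.92, 3.15 and 3.73 (0.94 ± 1.16). Tnfsf14, the third without overlap, differed by 1.23 ± 0.97. Il6 was at -0.37, -2.51 and -3.13 against 0.96, -1.84 and 1.77, and Csf1 had a difference of 3.31 ± 1.68 that 2 other probes did not show (-0.31 and -0.55).

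Of the chemokine ligands, which draw leukocytes, 23 of 31 were measured, with a median of 0.20. Cxcl10 was at -0.61, -0.05 and -0.80 in naive and 1.18, 1.31 and 4.14 in R-SDS arrays, and its difference of 2.70 was 1.73 without R-SDS replicate 3. Ccl3 was at 4.56, 3.85 and 3.60 against 5.56, 5.13 and 5.72 (1.47 ± 0.47). Ccl4 was at 6.27, 5.33 and 5.36 against 7.33, 7.05 and 7.37 (1.60 ± 0.62). For these 3 ligands all R-SDS arrays lay above all naive arrays (13.04% of the list, against 5.34% of all measured genes). The R-SDS arrays lay close together for Ccl3 and Ccl4. Ccl24, a marker of border macrophages, went the other way (4.35%, against 3.45%), at 2.17, 0.23 and 0.16 against -0.04, -0.85 and -1.28. Among cytokine receptors and SOCS feedback genes (36 of 45 measured, median 0.20), the feedback inhibitor Socs3 alone had R-SDS arrays (4.11, 4.02 and 3.79) all above naive arrays (3.44, 3.07 and 1.56). That is 2.78% of the list, below the 5.34% of all measured genes, and Tnfrsf17 was lower without overlap (2.78%, against 3.45%).

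The NF-kappaB list of subunits and feedback targets (30 of 34 measured) had a median of 0.42, with 20 above 0 and 5 higher without overlap (16.7%, against 5.34%). Rel, a subunit, was at 0.62, -1.37 and -0.79 in naive and 1.13, 0.90 and 2.24 in R-SDS arrays, and Zc3h12a, whose product cuts the mRNA of cytokines, at -0.53, -2.47 and -0.48 against 2.26, 1.83 and 0.06. Rel was highest and Zc3h12a lowest on R-SDS replicate 3. The ubiquitin editor Tnfaip3 (0.87 ± 0.59), Cd83 (1.54 ± 0.74) and the inhibitor Nfkbib (1.59 ± 0.86) were the others. Toll-like receptors, adaptors and kinases had a median near 0 (33 of 38 measured, 0.08), with Tlr7 and Tlr8 higher (6.06%, against 5.34% of all measured genes) and Tlr3 lower (3.03%, against 3.45%) without overlap, near the shares over all genes. Tlr2 was at 1.38, 1.75 and 2.56 in naive and 2.68, 1.90 and 1.21 in R-SDS arrays, and Tlr4 at 1.89, 1.82 and 2.81 against 2.49, 1.92 and 1.60. For both the groups overlapped widely (0.03 ± 0.41 and -0.17 ± 0.54). Tlr7, which binds single-stranded RNA, was at 2.22, 2.47 and 2.70 against 3.08, 3.14 and 4.08. In the type I interferon list (22 of 36 measured, 18 above 0, median 0.57), Ifi27l2a was at -3.17, -2.92 and -3.37 against -1.10, -1.19 and 1.26 and the antiviral Rsad2 at -3.39, -2.77 and -4.36 against -2.76, -0.70 and -1.77.

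Hilpda is a textbook target of HIF, the hypoxia-inducible factor, and the rest of the hypoxia list stood near 0. Of 35 members 25 were measured, with 14 above 0 and 11 below (median 0.06), and besides Hilpda only Ddit4 had R-SDS arrays all above naive ones (2 of 25, where 5.34% of all measured genes did). Gbe1 was lower without overlap (4.00%, against 3.45%). The HIF subunit gene Hif1a was at 2.70, 2.85 and 2.24 in naive and 1.84, 2.79 and 1.45 in R-SDS arrays, and Epas1 differed by 0.10 ± 0.30 and Arnt by -0.15 ± 0.46. Bnip3 and Pdk1, common HIF targets, differed by -0.22 ± 0.83 and -0.42 ± 0.67. Glycolysis genes (20 of 22 measured) had 18 above 0 and a median of 0.68, which was 0.49 within slide 1 and 0.28 without R-SDS replicate 3. Pfkp was at -2.10, -5.32 and -6.38 against 0.76, -0.42 and 1.98, but another probe of it gave 0.46 ± 0.53.

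Hilpda belongs equally to the lipid droplet list, of which 35 of 43 were measured with a median of 0.12. Without overlap, 3 members were higher (8.57%, against 5.34%) and 3 lower (8.57%, against 3.45%). Among the higher ones, Hilpda and Plin2 counted as measured only through the R-SDS group, where they are high. The higher share is therefore no support for a rise of the list. Plin2, the main coat protein of lipid droplets, was at -4.13, -2.52 and -4.12 in naive and 0.42, 0.74 and 0.02 in R-SDS arrays (3.98 ± 1.24, limma adjusted p = 0.830). It was detected on 1 naive array and on every R-SDS array. The 3 stressed arrays lay close together, and the difference was 4.17 without R-SDS replicate 3. Pnpla2, the gene of ATGL, the lipase that Hilpda inhibits, was at 2.00, 1.08 and 1.74 against 2.84, 2.62 and 4.43 (1.69 ± 0.69, and 1.12 without R-SDS replicate 3). The lower members were Cpt2 of mitochondrial fatty acid oxidation, at 0.23, 0.73 and -0.62 against -1.36, -2.23 and -2.34, the fatty acid carrier Fabp5 (-2.03 ± 0.91) and lipoprotein lipase, Lpl (-1.90 ± 0.88). In the cholesterol list (22 of 33 measured, median -0.21) 0 members had groups that lay apart.

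Heat shock chaperones (27 of 35 measured) had a median of 0.43 that was 0.03 without R-SDS replicate 3. The member of smallest p was Dnajb4, a co-chaperone of Hsp70, at -2.49, -0.15 and -0.60 in naive and 2.72, 2.15 and 1.00 in R-SDS arrays (3.04 ± 0.71, limma adjusted p = 0.727). The groups lay apart, with R-SDS replicate 3 the lowest of the stressed arrays. Bag3 (1.00 ± 0.63), Dnajb6 (0.90 ± 0.44), Ahsa1 (1.34 ± 0.90) and Dnajb1 (0.39 ± 0.29) were the others of 5 that were higher without overlap (18.5%, against 5.34%), and Hspa1l was lower (3.70%, against 3.45%). Without R-SDS replicate 3 Ahsa1 differed by 0.58 and Dnajb6 by 0.51. The inducible Hsp70 gene Hspa1a was at 1.04, 0.44 and 1.94 against 1.98, 0.36 and 0.32. In the integrated stress and unfolded protein list (29 of 34 measured, median 0.40, and 0.05 without R-SDS replicate 3), Herpud1 was at 1.79, 2.84 and 2.63 against 3.05, 3.23 and 4.78 and the chaperone Calr at 5.49, 4.82 and 5.12 against 5.67, 6.13 and 5.57. Tgif1, a repressor of TGF-beta signalling, was at 1.32, 1.79 and 1.46 against 3.24, 2.57 and 2.76 (1.33 ± 0.38), while 11 of the 21 measured genes of that pathway were above 0.

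Homeostatic genes of microglia did not separate the groups. Of 38 homeostatic genes 37 were measured, 30 were above 0 and 0 had groups that did not overlap. Their median of 0.36 was -0.26 within slide 1 (6 of 37 above 0), 1.34 within slide 2 and -0.10 without R-SDS replicate 3, so its direction turned with that array. The nucleotide receptor P2ry12 was at 5.30, 5.84 and 4.59 in naive and 5.40, 5.01 and 5.92 in R-SDS arrays, and Tmem119 at 7.15, 7.35 and 6.76 against 7.03, 6.86 and 7.97. Cx3cr1 was at 8.38, 8.70 and 7.99 against 8.29, 8.10 and 9.70. All 3 turned direction without R-SDS replicate 3 (-0.04, -0.14 and -0.16), and Sall1, the lineage factor of microglia, differed by -0.14 ± 0.29. Complement and phagocytic receptors (42 of 49 measured) and MHC class II genes (11 of 13) also had 0 members without overlap. In the lysosome list (32 of 35 measured), 3 members were higher (9.4%, against 5.34%) and 1 lower (3.1%, against 3.45%) without overlap.

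Among 25 lineage transcription factors, all measured, 3 were higher and 2 lower without overlap, against 5.34% and 3.45% of all genes. Hhex, a homeobox factor, was at 1.82, 3.02 and 3.00 in naive and 0.78, 1.09 and 0.74 in R-SDS arrays (-1.74 ± 0.44, limma adjusted p = 0.729). The 3 stressed arrays lay close together and below every naive array. Etv5 was at 4.67, 4.50 and 4.59 against 3.95, 4.05 and 3.82 (-0.65 ± 0.27). Besides Cebpb, the higher factors were Id2, at 1.38, -0.52 and -1.21 against 1.83, 2.00 and 1.95, and Runx1 (2.43 ± 0.84), of which another probe gave -0.75 ± 0.81. In the disease-associated list (26 of 31 measured) Lyz2 was higher (0.67 ± 0.47, 3.85% of the list against 5.34%) and Fabp5 and Lpl were lower without overlap (7.69%, against 3.45%). The proliferation marker Mki67 was at -2.20, -1.18 and -0.63 against -3.35, -2.86 and -4.69, and was well above background on 1 R-SDS array.

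Beyond the lists, the genes of smallest p were named in each direction, 12 higher and 12 lower, with limma adjusted p of 0.685 to 0.749 for all but the 2 that passed. Cemip, which drives the breakdown of hyaluronan, was at -3.75, -2.42 and -3.80 in naive and -0.35, -0.23 and -1.14 in R-SDS arrays (2.75 ± 0.61, and 3.04 without R-SDS replicate 3). Fancb, of the Fanconi anaemia DNA repair complex, was above background on 3 of 3 R-SDS and 0 of 3 naive arrays and at least 5.24-fold higher. Heatr5a (1.97 ± 0.49), Zfp703 (1.75 ± 0.43), Bex1 (2.18 ± 0.50), Vmn1r89 (1.79 ± 0.45) and Dnajc13 (4.17 ± 1.07, and 2.77 without R-SDS replicate 3) complete the higher set with Hilpda, Msantd3, Dnajb4, Cebpb and Sik1. On the lower side, Rnase6, a secreted antimicrobial ribonuclease, was at 1.99, 3.01 and 2.20 against 0.68, -0.74 and -1.67 (-2.98 ± 0.72). Pilra, an inhibitory receptor of myeloid cells, was at 2.56, 1.37 and -0.10 against -1.11, -0.58 and -1.40, a difference that vanished (0.02) when all its probes were averaged. Gnl3l (-5.26 ± 1.13), Zscan21 (-4.14 ± 0.95), Hacd4 (-4.54 ± 1.10), Zbtb5 (-4.10 ± 1.07), Tgds (-2.49 ± 0.62), Zc3h7a (-2.02 ± 0.52) and the ESCRT gene Vps25 (-4.25 ± 1.15) make up the rest with Hhex, Zfp120 and Tfpi. The other probes of Zfp120 (-0.81 against -6.11) and Tfpi (-0.44 and -0.17 against -2.38) differed far less. Those of Vps25 gave -1.18 and -3.32, and its difference was -2.44 without R-SDS replicate 3.

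Detection itself differed in both directions. Of the measured genes, 12 went from 0 of 3 naive to 3 of 3 R-SDS arrays above background, Hilpda, Msantd3, Sik1 and Fancb among them, and 176 went from 3 of 3 to 0 of 3. R-SDS replicate 3 had the smallest and naive replicate 3 the largest share of spots above background of the 6 arrays (50.3% and 71.0%), and the part of this in the counts was not tested. At an unadjusted p under 0.05, 828 measured genes were higher and 532 lower (over all genes in the fit, 906 and 553, which became 603 and 796 with quantile normalization and 436 and 519 without R-SDS replicate 3). Uniform p-values over the 24739 genes in the fit would give 1237 such genes, beside 1459 found and 955 without R-SDS replicate 3. In all, 1131 measured genes lay apart higher (5.34%) and 731 lower (3.45%).

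Of 84 cytosolic ribosomal protein genes 82 were measured and 80 were above 0, with a median of 0.70. Of these, 16 lay apart higher (19.5%, against 5.34% of all measured genes) and 1 lower (1.22%, against 3.45%). The median was 0.09 within slide 1, 1.99 within slide 2 and 0.42 without R-SDS replicate 3. Respiratory chain genes (76 of 79 measured) had a median of 0.28 and 0.16 without that array, mitochondrial ribosomal proteins 0.06 and 0.23 (0.04 within slide 1 and 0.09 within slide 2), and the proteasome 0.24 and 0.10. The median of all measured genes was 0.17, -0.06 within slide 1, 0.65 within slide 2 and 0.02 after normexp and quantile normalization, so list medians are to be read against it. The early transcription factors stayed above it in each of these settings.

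**Figure D4:**
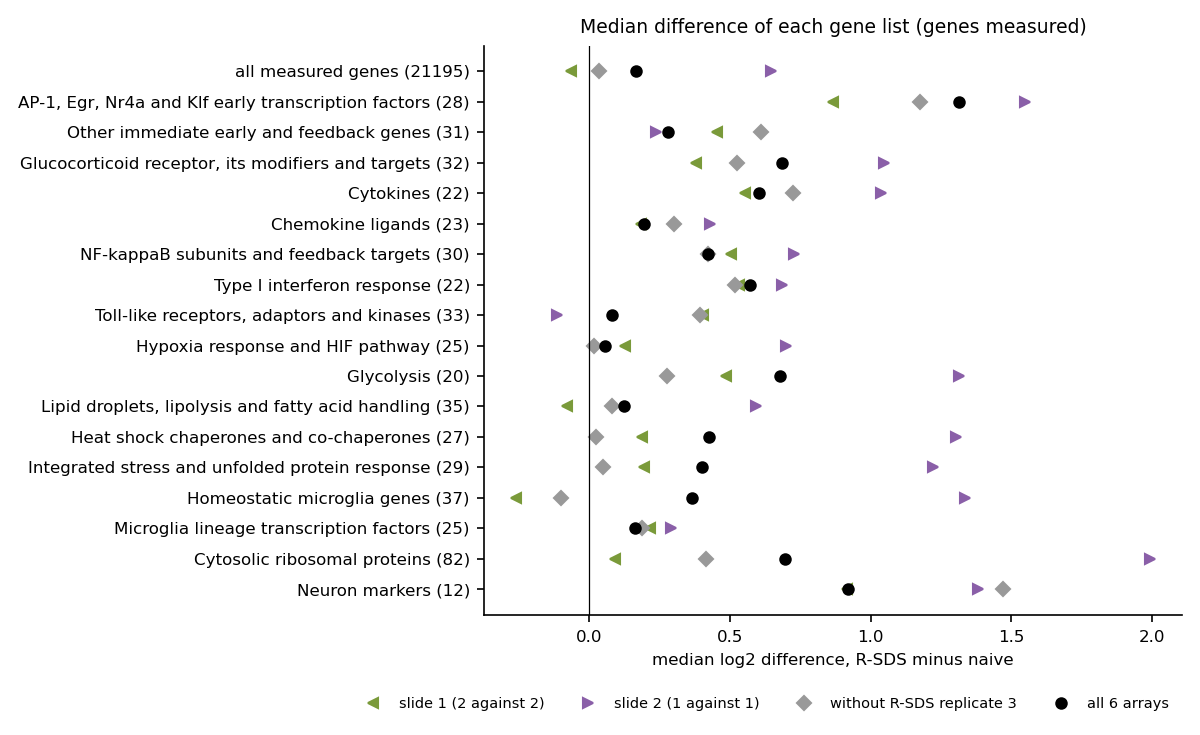
Median log2 difference, R-SDS minus naive (horizontal axis), of all measured genes and of 17 gene lists, with the number of genes measured in brackets, over all 6 arrays, within slide 1, within slide 2 and without R-SDS replicate 3. The early transcription factors lie between 0.87 and 1.55 in the 4 settings, while homeostatic genes run from -0.26 to 1.34 and all genes from -0.06 to 0.65.

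The response of wild-type mPFC microglia was last set against the other 2 pairs of groups, with the difference of the effects tested directly. Slides were uneven between treatments in both other pairs. In TLR-DKO mPFC, naive replicate 1 and R-SDS replicates 1 and 2 lay on slide 1 and the rest on slide 2. In wild-type NAc, naive replicate 1 and R-SDS replicates 1 and 2 shared a slide and the rest shared another. The main fit had no term for slide, and the part of slide in the effects compared below was not tested. In TLR-DKO mPFC Tlr2 was below background on all 7 arrays (-4.23 to -3.57). Tlr4 gave 1.43 to 3.86 there, well above background on all 7, and where its probe lies relative to the deletion was not analysed here, so Tlr4 checks no label. By limma, 0 genes (0%) passed for the difference from TLR-DKO mPFC and 0 genes (0%) for the difference from wild-type NAc. There were 1507 and 801 genes of the fit at an unadjusted p under 0.05, where uniform p-values would give 1237. The smallest limma adjusted p was 0.495 and 0.210. Msantd3 had an effect 7.03 ± 1.28 larger in wild-type than in TLR-DKO mPFC (limma adjusted p = 0.495) and 7.76 ± 1.32 larger than in wild-type NAc (limma adjusted p = 0.210). For Hilpda these values were 5.88 ± 1.92 (limma adjusted p = 0.811) and 9.24 ± 1.99 (limma adjusted p = 1.00). Neither shows that the responses are alike, and both genes were named for passing in wild-type mPFC, which favours a larger effect there. Without R-SDS replicate 3, 1 gene, Fpgt, passed for the difference between genotypes (-5.38 ± 0.77, limma adjusted p = 0.0227).

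The early transcription factors had a median difference of 1.31 in wild-type mPFC, 0.19 in TLR-DKO mPFC and 0.75 in wild-type NAc, groups that share no array. Klf4 differed by 3.18 ± 0.85, 0.48 ± 0.80 and 1.39 ± 0.85 in that order, Atf3 by 1.81 ± 0.54, -0.41 ± 0.51 and 0.73 ± 0.54, and Fos by 1.84 ± 0.62, 0.70 ± 0.58 and 1.41 ± 0.62. For each of the 3 the wild-type mPFC value was the highest, and the difference between genotypes did not pass (limma adjusted p of 0.811, 0.811 and 0.832). Like Cxcl10 and Il1a below, these 3 were named partly for a small p in wild-type mPFC. That choice favours a larger value there, so the order is no support for a difference between the pairs of groups. Cxcl10 was at 2.70 ± 0.82, 0.46 ± 0.77 and -0.61 ± 0.82, and Il1a at 2.16 ± 0.90, -0.13 ± 0.84 and 0.83 ± 0.90. Of the hormone targets, Tsc22d3 was at 1.75 ± 0.46, 0.67 ± 0.43 and 1.77 ± 0.46, close between the regions of wild type. So was Ddit4, at 2.23 ± 0.62, 1.49 ± 0.58 and 2.45 ± 0.62. Fkbp5 (1.35 ± 0.49, -0.07 ± 0.46 and 0.82 ± 0.49) and Per1 (1.77 ± 0.74, -0.01 ± 0.69 and 1.19 ± 0.74) differed less in NAc than in mPFC of wild type. The median of the glucocorticoid list was 0.68, 0.24 and 0.34 in the same order. Rnase6 was lower in all 3 (-2.98 ± 0.72, -2.46 ± 0.68 and -1.73 ± 0.72), as was Hhex (-1.74 ± 0.44, -0.99 ± 0.41 and -1.05 ± 0.44). Cirbp, a cold-inducible RNA-binding protein, stood at 0.33 ± 0.40 in wild-type mPFC against -1.99 ± 0.38 in TLR-DKO mPFC and -1.93 ± 0.40 in wild-type NAc. Its 6 wild-type mPFC arrays overlapped (2.03 to 2.82 naive, 2.24 to 3.24 R-SDS), and the differences between effects did not pass (limma adjusted p of 0.811 and 1.00).

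**Figure D5:**
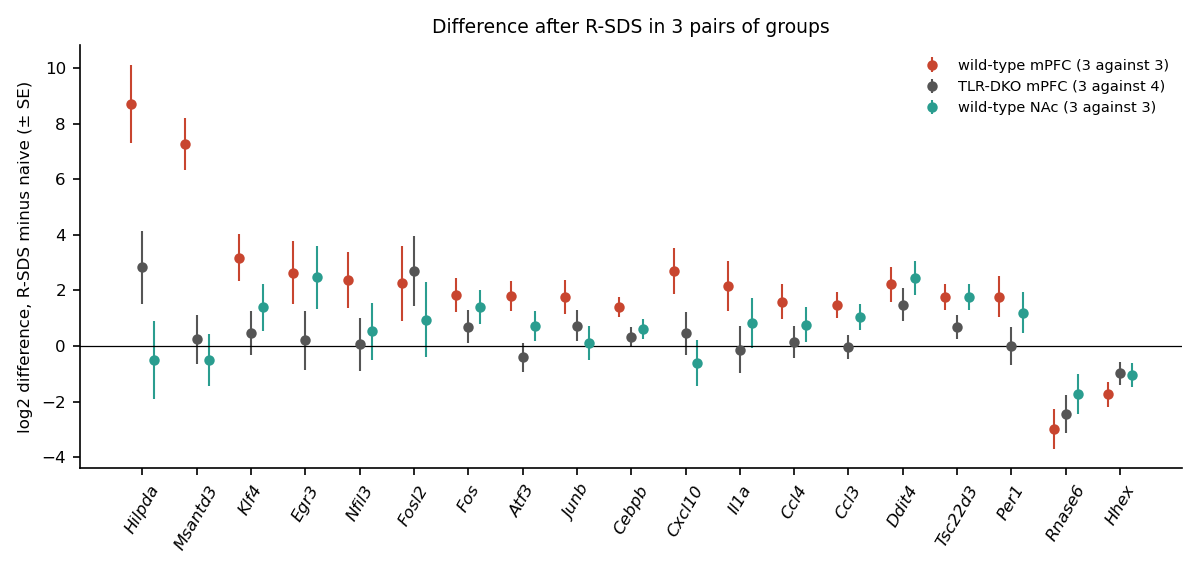
Log2 difference, R-SDS minus naive, with its SE (vertical axis) for 19 named genes in wild-type mPFC (red), TLR-DKO mPFC (grey) and wild-type NAc (green). Hilpda and Msantd3 stand at 8.72 and 7.27 in wild-type mPFC, and Rnase6 and Hhex lie below 0 in all 3 pairs of groups.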

How the data were processed

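Microglial RNA was hybridised with Cy3 to 1-colour Agilent mouse arrays. The deposited scanner files hold intensity values on a linear scale, background-subtracted in the processed signal, and flags of other kinds, such as well above background. Per the file headers they come from Agilent Feature Extraction, whose version the submitters' processing notes give as 11.0.1.1. The deposited matrix of log2 values had Pearson r = 1 with them on each of the 6 arrays and served as an alternative. It ran the same way, each column lay 0.018 to 0.046 from the values used here, and its column medians ran from -2.63 to -2.21.

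From log2 of the processed signal, each array's own 75th percentile was subtracted. Control spots and outlier spots were left out (55573 of 55681 probes kept, 0 spots saturated), spots of a probe were averaged, and the probe with the highest mean stood for its gene. Accessions of 27974 of 29744 RefSeq-style probes matched RefSeq (GRCm38.p6), and 27599 probes kept the file's name. The file headers name build mm9, so coordinates are only those of RefSeq promoters. All 26 arrays were fitted as 8 group means with limma 3.58.1 (lmFit, eBayes, two-sided, R 4.3.3) over genes well above background on 3 arrays of at least 1 group, with Benjamini-Hochberg adjustment at 0.05. A fold against a group below background is a bound ("at least") against, per array, the dimmest probe still flagged as above background or the gene's own signal, whichever is higher. It bounds that group only, and the mean of the other group is taken as measured, over all its arrays. On data simulated for the wild-type mPFC comparison (24739 genes, 50 changed per size) 34%, 78%, 90% and 96% of changes of log2 2, 4, 6 and 8 were recovered, with 9 false calls. The simulation drew independent normal noise with the same SD for a gene on every array. It had no array that stands apart and no slide difference, so these shares are not the sensitivity of the real comparison. There Sik1 (6.15) and Zfp120 (-6.11) did not pass.

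Replicate numbers were shared between the groups, but same-numbered arrays did not deviate together. Alternatives covered normalization, filters, probes, samples in the fit, variance, array weights, replicate numbers, slide and each array left out in turn. Normexp used the median spot signal, which was chosen after seeing the data, as was slide as a block without R-SDS replicate 3.

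Named genes were those that passed, the 12 higher and 12 lower of smallest p (RefSeq name, above background on 3 of 3 arrays of the higher group, log2 difference of at least 1, groups apart), up to 5 members of each of 43 lists, and a set of always-named genes such as Klf4, Fos, Tlr2 and Cx3cr1. The members and the lists were chosen with earlier results of these data known, so lists carry no test.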

Additional observations from a re-analysis of the deposited data

How the results depend on the processing

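The count of genes past the threshold, 2, was 1 with normexp and quantile normalization, quantile normalization, median centring, the deposited matrix, the mPFC arrays alone and slide as a block without R-SDS replicate 3. In the last of these the 1 was a probe with no gene name, and Msantd3 had a limma adjusted p of 0.0661. It was 0 among genes above background on all 6 arrays (a filter that leaves out Hilpda and Msantd3), with the 6 arrays alone and within slide 1, and it was 0 to 2 without each array in turn. It stayed within 1.5 times, at 2 or 3, in the other settings. With the replicate block, which pairs arrays that share only a number (correlation of deviations 0.06, -0.03 and 0.05), it was 0, with 1142 genes at an unadjusted p under 0.05. Genes at that level in the fit numbered 1459, and from 936 (6 arrays alone) to 2918 (without R-SDS replicate 2). Uniform p-values would give 1237 of the 24739 genes in each of these 3 fits. For the difference between genotypes the count of 0 became 1 with array weights and 0 to 1 without each array. The median of the early factors was 0.80 with normexp and quantile normalization and 0.87 within slide 1.

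Of 1525 pairs of gene and setting, over 70 genes, 1457 kept direction and side of the threshold and 47 reversed. With normexp and quantile normalization, Tlr2, Cx3cr1, P2ry12, Tmem119 and Cebpd stood at -0.054, -0.13, -0.19, -0.28 and -0.081, and with quantile normalization at -0.069, -0.16, -0.22, -0.26 and -0.0698. Median centring put Tlr2 at -0.11. Array weights put Tlr4, Cx3cr1, P2ry12, Tmem119, Cirbp and Cebpd at 0.19, -0.073, -0.013, -0.0838, -0.0045 and -0.17, slide 1 alone at 0.35, -0.35, -0.37, -0.31, -0.11 and -0.17 (and Klf2 at -0.019), and slide as a block without R-SDS replicate 3 at 0.29, -0.22, -0.31, -0.25, -0.26 and -0.68. The mean of all probes put Pilra at 0.019 and Mafg at -0.67. Without each array in turn, Tlr2 ran from -0.34 to 0.39, Tlr4 from -0.42 to 0.15, Cx3cr1 from -0.16 to 0.64, P2ry12 from -0.13 to 0.50, Tmem119 from -0.14 to 0.42, Klf13 from -0.063 to 1.43, Csrnp1 from -0.62 to 2.73 and Cebpd from -0.46 to 0.68. The cause of these reversals was not tested.

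Limits are the 3 arrays a group, the dim R-SDS replicate 3, and probes below background, which give bounds only.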

Other observations

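Outside the groups described above, genes of cell survival, proliferation and antigen processing gave mixed values after R-SDS, and none of those named here passed the test by limma. Of the cell cycle list 20 of 38 members were measured, with 2 higher (10.0%, against 5.34% of all measured genes) and 3 lower (15.0%, against 3.45%) without overlap. Pcna, the sliding clamp of DNA replication, was at 2.22, 3.22 and 2.75 in naive and 3.27, 3.60 and 3.51 in R-SDS arrays, and Top2a differed by 0.70 ± 0.47. Ccnb2, a mitotic cyclin, was at -0.96, -0.57 and -0.68 against -1.60, -1.93 and -1.45, and Mcm6 (-1.73 ± 1.31) and Mki67 (-2.30 ± 0.76) were lower too. In the list of p53, growth arrest and apoptosis genes (29 of 36 measured), Trp53 was at 2.03, 1.42 and 2.34 against -0.80, 0.95 and 0.35, while the survival genes Mcl1 (0.49 ± 0.36) and Bcl2a1d (0.99 ± 0.49) lay higher without overlap (6.90%, against 5.34%).

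The immunoproteasome subunit Psmb9 was at 1.73, 2.82 and 3.06 in naive and 3.48, 3.44 and 4.40 in R-SDS arrays (1.24 ± 0.46). It was the only 1 of 15 measured MHC class I genes without overlap (6.67%, near the 5.34% of all measured genes). Sod1, which detoxifies superoxide, was at 4.92, 4.85 and 4.08 against 5.05, 5.38 and 5.55. The prostaglandin synthase gene Ptgs2 overlapped between the groups, from -3.04 to 0.53 in naive and -0.10 to 0.83 in R-SDS arrays.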
